A study of Mus musculus with 4 samples.

Results

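The invariant chains of the T cell antigen receptor and their nearest signalling partners were followed as 6 genes, found by symbol in the feature lists of all 4 libraries. They were Cd3e, Cd3d, Cd3g and Cd247, which encode the CD3 epsilon, delta, gamma and zeta chains, Lat, which encodes the adaptor linker for activation of T cells, and Lck, which encodes a Src family kinase. These 6 genes were among 31914 genes in the joined lists. The single-cell RNA-seq study asked where in the mouse embryo LTi cells (lymphoid tissue inducers) come from, a class of innate lymphocytes needed for lymph nodes and Peyer's patches to form.

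The C57BL/6J embryos carried no genetic change and had no treatment that the labels name, and gave 4 groups: embryonic periphery at E14.5, embryonic periphery at E13.5, fetal liver at E14.5 and fetal liver at E13.5. Each group was a single library, so no difference between groups has a replicate check and no test was possible. After magnetic enrichment for CD45, live CD45+ F4/80- IL7Ra+ cells were sorted in every group. The sources used here give neither the number nor the sex of the embryos. The 10x Chromium 3' kit was version 2 for periphery and version 3 for fetal liver, so tissue and kit cannot be told apart. The list of counted genes also differed with tissue (28427 in periphery and 31053 in fetal liver) and cannot be told apart from it either. The ranges given after values are 95% exact intervals (Poisson for levels, Clopper-Pearson for shares), which cover counting error only.

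In T cells the CD3 chains assemble as dimers around the antigen-binding receptor chains and carry the tyrosine motifs, called ITAMs, that Lck phosphorylates. The kinase Zap70 docks on the phosphorylated motifs and in turn phosphorylates Lat, which gathers the enzymes and adaptors of the next step. Innate lymphoid cells lack a rearranged antigen receptor, but transcripts of single CD3 chains and of unrearranged receptor constant genes are known in NK cells and innate lymphoid cells of the mouse. Lat is also known for its work in mast cells, downstream of the high-affinity IgE receptor, and Cd247 pairs with activating receptors in NK cells.

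The 3 linked CD3 genes lay together on chromosome 9 of GRCm38. Cd3g (ENSMUSG00000002033) ran from 44969572 to 44980431 on the minus strand, Cd3d (ENSMUSG00000032094) from 44981786 to 44987339 on the plus strand, and Cd3e (ENSMUSG00000032093) from 44998740 to 45009627 on the minus strand. Cd3g and Cd3d were transcribed away from each other from starts 1354 bases apart, and the end of Cd3e lay 11400 bases from that of Cd3d. Cd247 (ENSMUSG00000005763) lay on chromosome 1 from 165788681 to 165877277 on the plus strand, Lat (ENSMUSG00000030742) on chromosome 7 from 126363824 to 126369570 on the minus strand, and Lck (ENSMUSG00000000409) on chromosome 4 from 129548344 to 129573641 on the minus strand. Cd3e overlapped the antisense gene Gm48719 by 3557 bases, and Cd247 overlapped Pou2f1 on the other strand by 12124 bases. The sources used here do not say whether counting used the strand.

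The promoter windows of the 3 linked CD3 genes and of Lat are shown because the CD3 genes shared a pattern over cell clusters that Lat did not. Each runs from 250 bases before to 50 bases after the start site and comes from RefSeq on GRCm38.p6. The windows are chr9:44980382-44980681 (minus strand) for Cd3g, chr9:44981536-44981835 (plus strand) for Cd3d, chr9:45009562-45009861 (minus strand) for Cd3e and chr7:126369519-126369818 (minus strand) for Lat. Capitals mark matches on either strand to an ETS core (AGGAAG), a TCF or LEF core (CTTTGA), a RUNX core (TGTGGT) or a GATA core (AGATAA).
Cd3g: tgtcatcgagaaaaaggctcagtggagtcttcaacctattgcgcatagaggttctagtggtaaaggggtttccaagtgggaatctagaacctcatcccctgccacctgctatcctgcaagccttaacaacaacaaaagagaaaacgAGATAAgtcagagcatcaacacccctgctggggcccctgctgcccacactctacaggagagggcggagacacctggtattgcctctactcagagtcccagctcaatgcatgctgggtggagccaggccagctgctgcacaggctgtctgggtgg
Cd3d: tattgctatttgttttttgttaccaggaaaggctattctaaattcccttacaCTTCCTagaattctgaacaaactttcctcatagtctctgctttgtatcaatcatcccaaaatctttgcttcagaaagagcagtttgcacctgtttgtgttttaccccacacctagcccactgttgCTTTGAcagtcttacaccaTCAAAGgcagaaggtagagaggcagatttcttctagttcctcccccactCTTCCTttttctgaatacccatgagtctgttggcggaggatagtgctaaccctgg
Cd3e: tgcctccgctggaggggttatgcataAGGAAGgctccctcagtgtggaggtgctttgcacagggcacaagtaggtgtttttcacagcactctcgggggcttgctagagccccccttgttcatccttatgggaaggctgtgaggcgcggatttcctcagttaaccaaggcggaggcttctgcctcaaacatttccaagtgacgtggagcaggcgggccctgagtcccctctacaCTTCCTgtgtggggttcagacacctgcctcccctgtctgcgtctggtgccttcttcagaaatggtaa
Lat: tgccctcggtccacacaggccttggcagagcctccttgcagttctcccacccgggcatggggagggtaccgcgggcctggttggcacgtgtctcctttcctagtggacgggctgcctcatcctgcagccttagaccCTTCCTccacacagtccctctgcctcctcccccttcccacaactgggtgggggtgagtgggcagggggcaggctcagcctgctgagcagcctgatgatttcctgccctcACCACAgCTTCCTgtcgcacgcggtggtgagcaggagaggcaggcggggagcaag

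The 4 windows did not share a match to any 1 of these cores. Cd3g held a GATA core at -104 from the start site and none of the other 3. Its neighbour Cd3d held ETS cores at -198 and -5 and TCF or LEF cores at -73 and -54. Cd3e held ETS cores at -224 and -17. Lat held ETS cores at -114 and 3 and a RUNX core at -5. Such matches are common: over 32817 windows of the same length, 35.4% held the ETS core, 16.0% the TCF or LEF core, 16.8% the RUNX core and 11.2% the GATA core. The cores were chosen with the windows in view, and a match is a description of letters.

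The libraries held 44599592 UMIs (unique molecular identifiers, each standing for 1 captured RNA molecule) in E14.5 periphery, 53229734 in E13.5 periphery, 208229937 in E14.5 fetal liver and 212034840 in E13.5 fetal liver. After filtering there were 4354 cells in E14.5 periphery and 4165 in E13.5 periphery, and 10833 in E14.5 fetal liver and 10223 in E13.5 fetal liver. Median UMIs per cell were 8503 and 11081 in periphery at E14.5 and E13.5, and 15611 and 18430 in fetal liver at the same stages. Cells with a UMI of Il7r, the sorted receptor, made up 78.5 to 87.7% of each library, and cells with a UMI of Adgre1, which encodes F4/80, made up 2.92 to 5.28%. LTi-like clusters held 71.1% of cells in E14.5 periphery and 31.6% in E13.5 periphery. In fetal liver they held 1.97% of cells at E14.5 and 3.74% at E13.5. Most of the sorted fetal liver cells thus lay outside LTi-like clusters although the sort is labelled LTi. The periphery shares depend on how LTi-like cells are delimited. The unnamed clusters P4 and P9 also had most of the listed LTi markers detected. In E13.5 periphery 1317 cells were LTi-like as reported, 984 with finer clusters and 2076 with P4 and P9 added. In E14.5 periphery these counts were 3096, 2718 and 3338. The periphery libraries shared 33 barcodes and the fetal liver libraries 29.

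Lat, Lck and Cd3g were clearly measured, and the other 3 CD3 chains were scarce. Levels are in CPM, the UMIs of a gene summed over the kept cells and scaled to the same total in every library. Lat stood at 177 CPM (173 to 181) in E14.5 periphery and 119 CPM (116 to 122) in E13.5 periphery, against 19.9 CPM (19.2 to 20.5) in E14.5 fetal liver and 13.04 CPM (12.5 to 13.6) in E13.5 fetal liver. Lck stood at 129 CPM (125 to 132) in E14.5 periphery and 90.4 CPM (87.8 to 93.1) in E13.5 periphery, against 39.2 CPM (38.3 to 40.1) in E14.5 fetal liver and 35.9 CPM (35.1 to 36.8) in E13.5 fetal liver. Both genes were higher in each periphery library than in each fetal liver library, and their CPM was higher at E14.5 than at E13.5 within each tissue. Cd3g ran the other way with stage in periphery: it stood at 75.4 CPM (72.8 to 78.1) in E14.5 periphery and 149 CPM (145 to 152) in E13.5 periphery, against 10.4 CPM (9.96 to 10.9) in E14.5 fetal liver and 8.34 CPM (7.94 to 8.76) in E13.5 fetal liver.

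Cd3d, Cd247 and Cd3e stayed below 10 CPM in every library, the level below which no fold was read here. Cd3d stood at 9.03 CPM in E14.5 periphery and 9.88 CPM in E13.5 periphery, against 0.976 CPM in E14.5 fetal liver and 0.9496 CPM in E13.5 fetal liver. Cd247 stood at 7.05 CPM in E14.5 periphery and 6.07 CPM in E13.5 periphery, against 1.02 CPM in E14.5 fetal liver and 0.564 CPM in E13.5 fetal liver. These 2 chains did not differ between the stages of periphery beyond their counting intervals. Cd3e, the chain that T cell antibodies against CD3 most often target, stood at 4.64 CPM (4.01 to 5.33) in E14.5 periphery and 1.87 CPM (1.51 to 2.29) in E13.5 periphery, against 0.388 CPM in E14.5 fetal liver and 0.259 CPM in E13.5 fetal liver. Of the 196 Cd3e UMIs in E14.5 periphery, 68.4% came from the 16 cells of cluster P20 and 15.3% from the 20 cells of cluster P22, the T cell-like cluster. The same 2 clusters gave 29.8 and 16.2% of the Cd3d UMIs in E14.5 periphery.

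**Figure D1:**
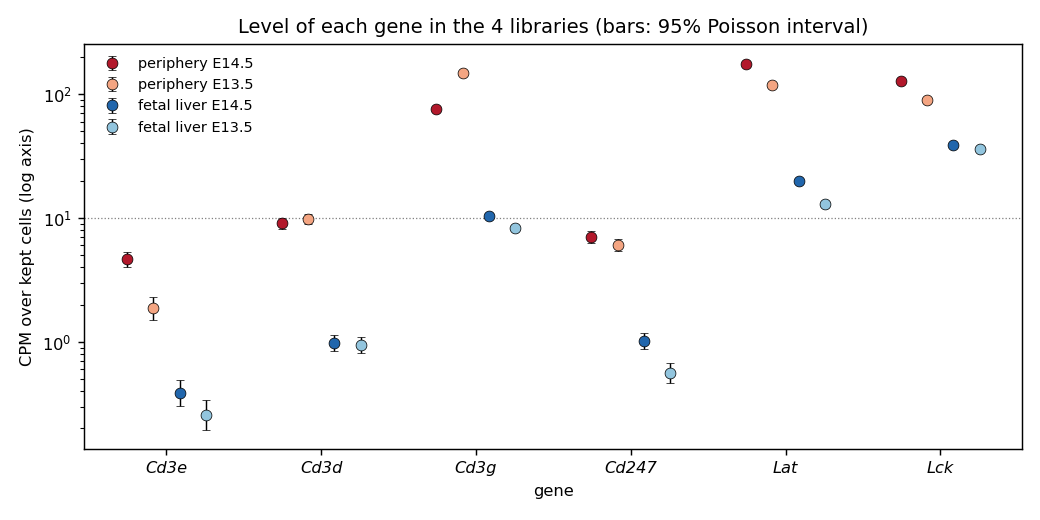
Level of each gene over the kept cells of a library, in CPM on a log axis, with 1 point per library, 95% Poisson intervals as bars and a dotted line at 10 CPM. The periphery points of Lat, Lck and Cd3g lie above the fetal liver points, and Cd3g is the gene whose E13.5 periphery point (149 CPM) lies well above its E14.5 periphery point (75.4 CPM).

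Shares of cells with at least 1 UMI were read with and without thinning, because depth differed between libraries. Lat was seen in 66.6% of cells in E14.5 periphery and 51.8% in E13.5 periphery, and in 18.7% in E14.5 fetal liver and 16.8% in E13.5 fetal liver. Thinned to 5000 UMIs per cell, with 460, 331, 736 and 381 shallower cells left out, these shares became 55.3, 38.1, 8.85 and 6.48% in the same order. Lck was seen in 60.04% of cells in E14.5 periphery and 55.9% in E13.5 periphery, and in 36.4% in E14.5 fetal liver and 39.5% in E13.5 fetal liver (46.4, 35.3, 17.3 and 17.03% after thinning). Cd3g was seen in 13.2% of cells in E14.5 periphery and 26.5% in E13.5 periphery, and in 4.64% in E14.5 fetal liver and 5.21% in E13.5 fetal liver (9.99, 20.4, 3.09 and 2.83% after thinning). In fetal liver the shares of both Lck and Cd3g changed direction between stages with depth, and no order of stages was read from these shares.

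Cells of the B lineage, which do not use CD3, were taken as a background, and myeloid classes were set beside them. B lineage-like cells had a Cd3g UMI in 3.26% of 337 cells at E14.5 and 3.61% of 305 cells at E13.5 in periphery, at median depths of 18502 and 13890 UMIs. In fetal liver the Cd3g shares of these cells were 0.435% at E14.5 and 1.27% at E13.5. No B lineage-like cell of any library had a Cd3e UMI. A Lck UMI was seen in 26.4 and 38.0% of B lineage-like cells of E14.5 and E13.5 periphery. Monocyte or macrophage-like cells had one in 4.81 and 22.9% at these stages, and mast cell or basophil-like cells in 5.21 and 3.85%. The Lck level of B lineage-like cells of E13.5 periphery was 48.5 CPM (42.2 to 55.3). That of monocyte or macrophage-like cells there, 37.5 CPM (30.1 to 46.3), overlapped it. No background level of Lck was therefore read from these classes.

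Between stages in periphery, Cd3g was the member that differed past 2-fold. Folds are log2 values after adding 5 CPM to both levels, which understates changes of low genes, less the median fold of all genes at 10 CPM or more in either library. Among the 3 members at that level, 0 were higher and 1 lower at E14.5 past 2-fold, beside 1.48% of 7237 genes higher and 2.29% lower. The fold of Cd3g was -1.16, that of Lat 0.32 and that of Lck 0.26, with a median fold of 0.23 taken off, and before that step the Cd3g fold was -0.93. Cluster P6, with the second highest Cd3g level of the well-filled clusters, made up 3.45% of cells (2.92 to 4.03) at E14.5 and 11.9% (10.9 to 12.9) at E13.5. Without P6 the Cd3g fold was -0.48, and without the small clusters P20 and P22, which carried 32.5 and 3.48% of the Cd3g UMIs at E14.5, it was -1.70.

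Between stages in fetal liver, no member differed past 2-fold. Of the same 3 members at 10 CPM or more, 0 were higher and 0 lower at E14.5, beside 1.29% of 7741 genes higher and 0.323% lower. Lat had a fold of 0.49, Cd3g of 0.24 and Lck of 0.14. Cd3g was under 10 CPM at E13.5 (8.34 CPM), so it counted only through E14.5 and could not have come out lower at E14.5.

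Between tissues, Lat, Cd3g and Lck were each higher in periphery at both stages. At E14.5, 3 of 3 members were higher in periphery past 2-fold and 0 lower, beside 12.3% of 8118 genes higher and 11.4% lower. The folds were 3.04 for Lat, 2.55 for Cd3g and 1.77 for Lck. At E13.5, 3 of 3 members were again higher and 0 lower, beside 12.6% of 7986 genes higher and 10.5% lower, with folds of 3.94 for Cd3g, 3.19 for Lat and 1.63 for Lck. At E13.5 Cd3g was under 10 CPM in fetal liver (8.34 CPM), so it counted only through periphery and could not have come out lower in periphery. These comparisons share libraries with the comparisons between stages. LTi-like cells made up a far larger share of periphery than of fetal liver, as given above, and the part of that share in the folds was not tested.

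Within a tissue, cells were grouped into clusters from variable genes that did not include the 6 members. A cluster was called X-like where most listed markers of a cell type were detected, unless another type's markers led it at least as much. Otherwise, or where a T or innate lymphoid type and a myeloid, erythroid or megakaryocyte type both qualified, it kept only its number. The leading genes of some named clusters, such as the LTi-like P1, P3 and P8 and the group 1-like P10, held no listed marker. Cd3g was richest, among clusters with at least 50 cells, in the 4 clusters described next. P6 had no name and was led by Gm4208, Ccl5, Cck, Cd3g, Dhrs2 and Tnfrsf9. P13 had no name and was led by the mast cell protease gene Cma1, the receptor gamma constant gene Tcrg-C4, Bcl11b and Skap1. P10 was group 1 innate lymphoid or NK-like, and FL18 of fetal liver had no name and was led by Cxcl10, Arg1, Ccl5, AW112010, Tnfrsf9 and Rora.

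In periphery Cd3g was high in P6, P13 and P10 at both stages and low in the clusters named LTi-like. Most of the listed LTi markers were also detected in P6, P10 and P4, which did not take that name. The contrast therefore rests in part on the naming rule. In P6 it stood at 447 CPM (414 to 481, 150 cells) at E14.5 and 716 CPM (695 to 738, 496 cells) at E13.5, a difference beyond the counting intervals. In P13 it stood at 619 CPM (569 to 673, 68 cells) at E14.5 and 753 CPM (702 to 807, 73 cells) at E13.5. P13 and P6 did not differ beyond their intervals at E13.5, but P13 was higher than P6 at E14.5. P10 followed, with 178 CPM (158 to 200) at E14.5 and 248 CPM (226 to 272) at E13.5. The unnamed cluster P4 had 55.6 CPM at E14.5 and 108 CPM at E13.5, and the unnamed cluster P5, led by the progenitor genes Cd34 and Flt3 among others, had 43.6 CPM (30 cells) at E14.5 and 54.9 CPM (617 cells) at E13.5. LTi-like clusters of periphery with at least 50 cells lay between 8.38 and 27.6 CPM, and the B lineage-like cluster P7 had 2.02 CPM at E14.5 and 1.27 CPM at E13.5.

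P13 held cells of more than 1 kind. Clustered more finely, it split into P26, with 62 cells at E14.5 and 65 at E13.5, and P34, with 6 and 8. In P26 Cd3g stood at 652 CPM at E14.5 and 815 CPM at E13.5. In the few cells of P34, led by mast cell protease genes, Cd3g had 40 UMIs at E14.5 and 70 at E13.5 while Cd3e, Cd247 and Lck had 0 at both stages.

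FL18 was the fetal liver counterpart in level. Its Cd3g level was 379.5 CPM (359 to 401, 279 cells) at E14.5 and 553 CPM (511 to 597, 93 cells) at E13.5, against a median of 0.582 and 1.10 CPM over the 22 and 19 fetal liver clusters with at least 50 cells. Next came the LTi-like cluster FL16, with 75.3 CPM at E14.5 and 71.4 CPM at E13.5, and the innate lymphoid progenitor-like cluster FL12, with 60.5 CPM at E14.5 and 40.3 CPM at E13.5. FL16 and FL12 did not differ beyond their intervals at E14.5 but did at E13.5. FL18 made up 2.58% of fetal liver cells at E14.5 and 0.910% at E13.5.

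**Figure D2:**
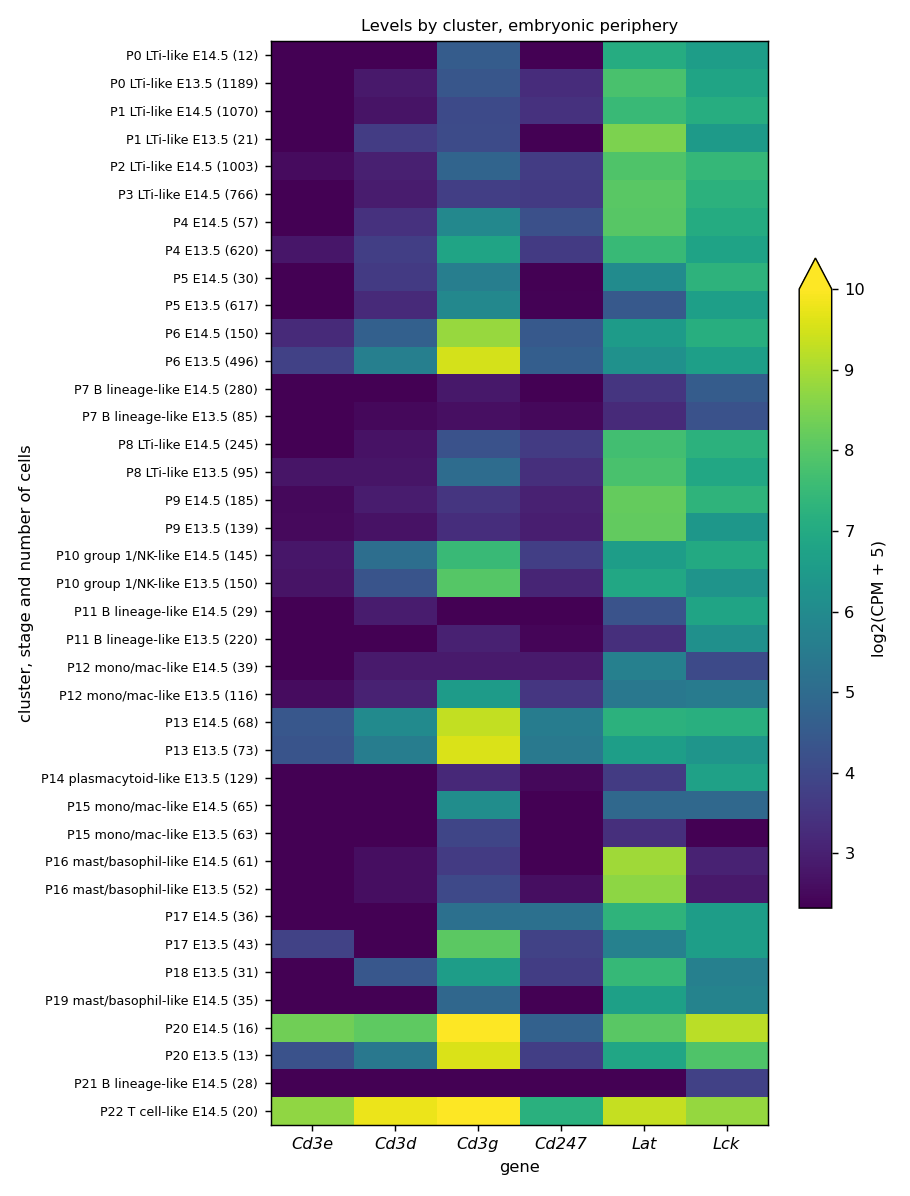
Level of the 6 genes in each periphery cluster with at least 10 cells at a stage (number of cells in brackets), as log2(CPM + 5), with a lighter colour for a higher level. P6 and P13 are light for Cd3g and dark for Cd3e, P22 and the E14.5 row of P20 are light for Cd3e, Cd3d and Cd3g, and the LTi-like rows P0 to P3 and P8 are dark for Cd3e and lighter for Lat and Lck.

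The other CD3 chains rose and fell over clusters with Cd3g, at much lower counts. Cd3d reached 59.0 CPM at E14.5 and 42.3 CPM at E13.5 in P13, and 20.6 CPM at E14.5 and 45.0 CPM at E13.5 in P6. Cd247 reached 41.5 CPM at E14.5 and 37.6 CPM at E13.5 in P13, and 16.9 CPM at E14.5 and 19.5 CPM at E13.5 in P6. In FL18 Cd3d stood at 29.6 CPM at E14.5 and 30.6 CPM at E13.5, and Cd247 at 25.7 CPM at E14.5 and 14.45 CPM at E13.5. Among clusters with at least 50 cells, P13 had the highest level of Cd247 in periphery at both stages, Cd3d was highest in P13 at E14.5 and in P6 at E13.5, and FL18 was highest for both chains in fetal liver. Cd3e stayed low even there, with 16.4 CPM (15 UMIs) at E14.5 and 15.04 CPM (16 UMIs) at E13.5 in P13, and 4.38 CPM (7 UMIs) at E14.5 and 9.08 CPM (53 UMIs) at E13.5 in P6. The LTi-like clusters P1, P3 and P8 had no Cd3e UMI at E14.5, and neither did P0, with 1189 cells, at E13.5.

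Over the clusters and stages with at least 50 cells, the CD3 chains went together and Lat and Lck did not go closely with them. Pearson r of log2(CPM + 5) between pairs of CD3 chains was 0.77 to 0.92 over 26 points in periphery and 0.88 to 0.95 over 41 points in fetal liver. Lat had an r of 0.13 to 0.40 with the CD3 chains in periphery and 0.47 to 0.58 in fetal liver, and Lck 0.28 to 0.56 in periphery and 0.43 to 0.51 in fetal liver. Lat and Lck had an r of 0.31 in periphery and 0.18 in fetal liver. The points share libraries and depth and are not replicates, so these values are descriptions.

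**Figure D3:**
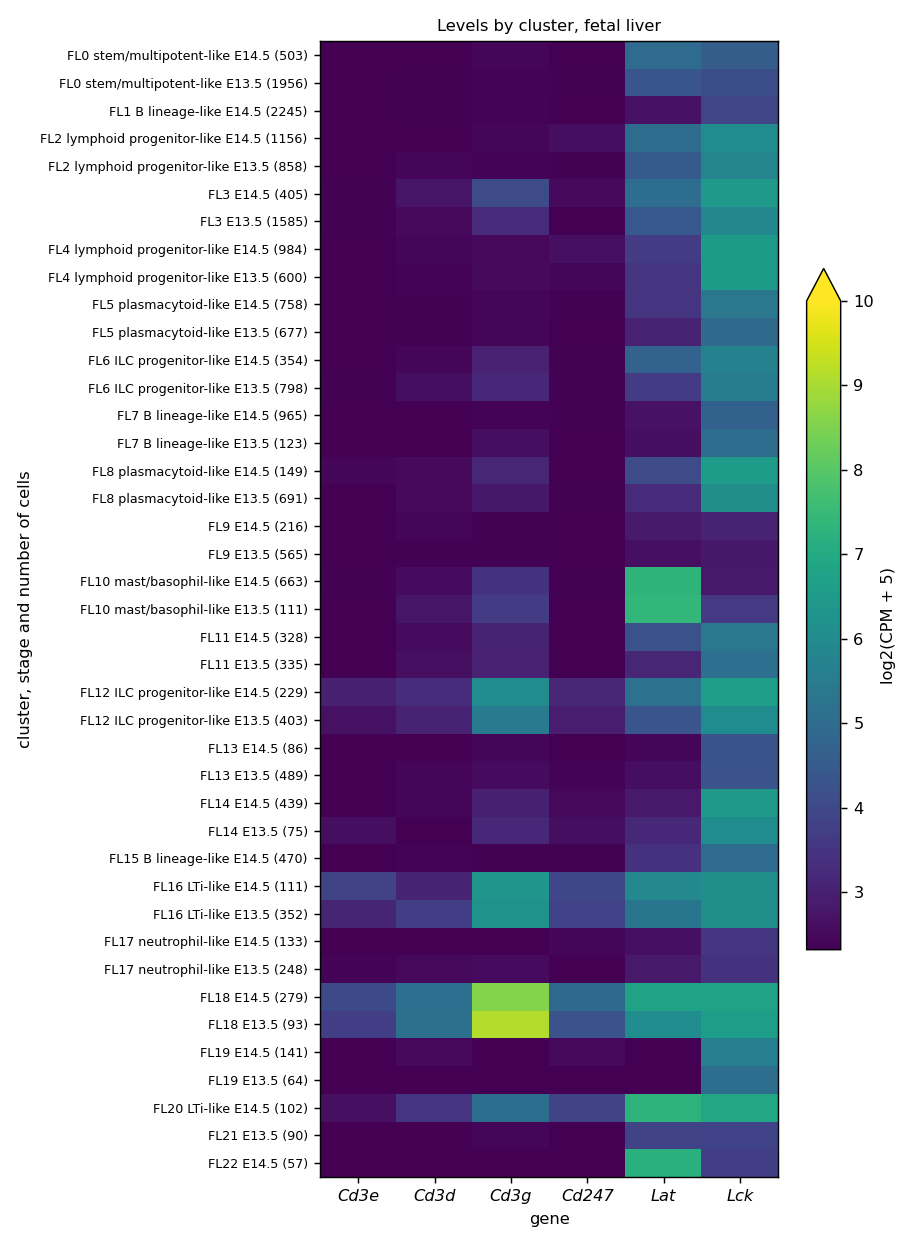
Level of the 6 genes in each fetal liver cluster with at least 50 cells at a stage, as log2(CPM + 5), with a lighter colour for a higher level. FL18 is the bright Cd3g row, FL10 is bright for Lat and dark for Lck, and FL4 is bright for Lck and dark for Lat.

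The make-up of the CD3 transcripts differed between clusters. Among UMIs of the 4 chains in a cluster, Cd3g made up 91.4% (89.2 to 93.3) in P6 at E14.5 and 90.7% (89.8 to 91.5) at E13.5. In P22, the T cell-like cluster of 20 cells at E14.5, Cd3g made up 52.1% (45.2 to 59.0) of 213 UMIs, with Cd3e at 422 CPM and Cd3d at 872 CPM. Cluster P20, led by the granzyme gene Gzma, the gamma constant gene Tcrg-C2 and Cd3e among others, had 80.2% (77.9 to 82.3) Cd3g at E14.5 and 92.6% (88.9 to 95.4) at E13.5. It differed between stages in Cd3e, with 315 CPM in 16 cells at E14.5 and 14.2 CPM in 13 cells at E13.5. The LTi-like clusters also had a lower Cd3g share, at 60.9% in P1, 66.0% in P2 and 45.8% in P3 at E14.5 and 69.4% in P0 at E13.5. Cd247 supplied most of the remainder in P3, with 39 of 96 CD3 chain UMIs at E14.5, and in P0, with 62 of 291 at E13.5. Because the chains differ in transcript length and 3' ends, these shares compare clusters and not the levels of the chains.

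**Figure D4:**
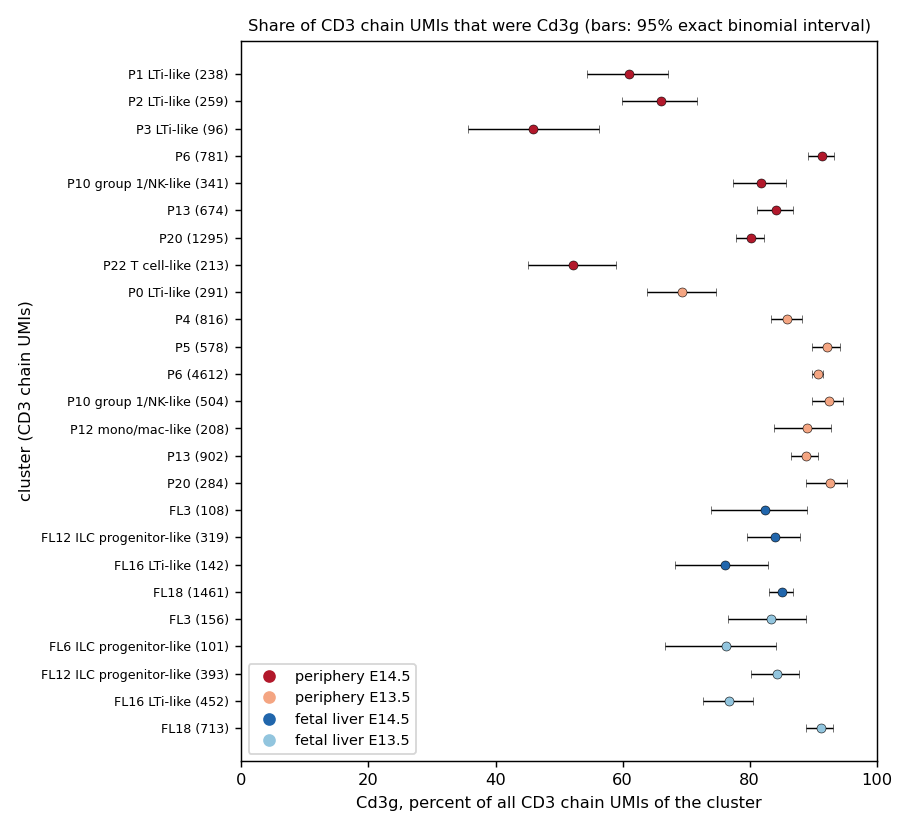
Share of Cd3g among the UMIs of the 4 CD3 chain genes, in percent, for clusters with at least 10 cells and 96 UMIs of the 4 chains (UMIs in brackets), with exact binomial intervals as bars and the 4 libraries as colours. P6 lies near 91% at both stages, and the T cell-like P22 at 52.1% and the LTi-like P3 at 45.8% lie lowest of the points plotted.

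The receptor chains that CD3 serves were present in part. Cells with a UMI of Cd3e, Cd3d or Cd3g numbered 640 (14.7% of cells) in E14.5 periphery and 1172 (28.1%) in E13.5 periphery, and 559 (5.16%) in E14.5 fetal liver and 632 (6.18%) in E13.5 fetal liver. Of these cells 52.5 to 71.2% had a UMI of the receptor beta constant gene Trbc1 and 88.9 to 96.6% one of Trbc2. By contrast 90.8% in E14.5 periphery and 95.2% in E13.5 periphery, and 88.7% in E14.5 fetal liver and 94.9% in E13.5 fetal liver, had no UMI of the alpha and delta constant genes Trac and Trdc. In P6 Trac had 0 UMIs at E14.5 and 3 at E13.5, while Trbc1 stood at 1404 CPM at E14.5 and 1193 CPM at E13.5. P22 had Trac at 619 CPM, Trdc at 394 CPM and Trbc1 at 576 CPM at E14.5. P20 had 0 UMIs of Trac at both stages, with Trdc at 82.4 CPM at E14.5 and 37.0 CPM at E13.5 and Ptcra, which encodes the surrogate alpha chain of thymocytes, at 51.8 CPM at E14.5 and 25.6 CPM at E13.5. Constant gene counts do not show whether a receptor gene was rearranged.

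Within single cells most with a Cd3e UMI also had a Cd3g UMI, but few had all 4 chains. Cd3g was seen in 85.5% of cells with a Cd3e UMI and 12.3% of the other cells in E14.5 periphery, and in 94.3 and 25.4% in E13.5 periphery. All 4 CD3 chains were seen in 15 cells of E14.5 periphery, 9 of E13.5 periphery, 5 of E14.5 fetal liver and 2 of E13.5 fetal liver, and all 6 members in 11, 3, 4 and 2 cells in the same order. Lat was seen in 68.2% of Cd3g-positive cells and 66.4% of the other cells in E14.5 periphery. In E13.5 periphery Lat was seen in 44.5% of Cd3g-positive cells and 54.4% of the others. Lck was seen in 72.2% of Cd3g-positive cells and 58.2% of the others in E14.5 periphery, and in 62.4 and 53.5% in E13.5 periphery. Detection in a cell depends on its depth, and a UMI of the other gene is more often found in deeper cells.

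Among clusters with at least 50 cells, Lat was highest in the mast cell or basophil-like clusters P16 and FL10, where Lck was low. In the 20 T cell-like cells of P22 Lat stood at 633 CPM (462 to 847) at E14.5. In P16 Lat stood at 471 CPM (428 to 517) at E14.5 and 406 CPM (366 to 450) at E13.5, while Lck stood at 3.25 CPM at E14.5 and 2.23 CPM at E13.5. In the fetal liver counterpart FL10, Lat stood at 156 CPM at E14.5 and 165 CPM at E13.5, and Lck at 2.16 CPM at E14.5 and 7.19 CPM at E13.5. P16 was above every other periphery cluster with at least 50 cells beyond the counting intervals at both stages, whereas FL10 overlapped the LTi-like cluster FL20 (151 CPM) at E14.5.

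The unnamed cluster P9 and the LTi-like clusters came next for Lat in periphery. P9 was led by MHC class II genes and had 283 CPM at E14.5 and 282 CPM at E13.5. The LTi-like clusters P3, P2 and P1 had 257, 229 and 181 CPM at E14.5, and P0 had 215 CPM at E13.5. At E14.5 the intervals overlapped between each neighbour in the order P9, P3, P4, P2, P8 and P1. The clusters with most Cd3g had less Lat: P6 had 87.0 CPM at E14.5 and 68.7 CPM at E13.5. The B lineage-like cluster P7 was lowest of the periphery clusters with at least 50 cells, with 6.42 CPM at E14.5 and 4.46 CPM at E13.5.

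Lck was less concentrated in single clusters than Lat and the CD3 chains. Its highest cluster level over the median of clusters with at least 50 cells was 1.25-fold at E14.5 and 1.503-fold at E13.5 in periphery, and 2.80-fold at E14.5 and 3.06-fold at E13.5 in fetal liver. For Cd3g the same ratios were 33.8 and 34.6 in periphery and 652 and 501 in fetal liver. In periphery at E14.5, P2 had 169.9 CPM of Lck, P9 153 CPM, P8 149 CPM and P3 148 CPM, and each overlapped the next. Lck was also seen outside the innate lymphoid clusters. In the lymphoid progenitor-like cluster FL4 it stood at 85.1 CPM at E14.5 and 86.4 CPM at E13.5, with Lat at 7.83 CPM at E14.5 and 6.42 CPM at E13.5, and in the plasmacytoid-like cluster P14 it stood at 99.7 CPM at E13.5. The stem or multipotent progenitor-like cluster FL0 had 19.3 CPM at E14.5 and 12.8 CPM at E13.5.

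**Figure D5:**
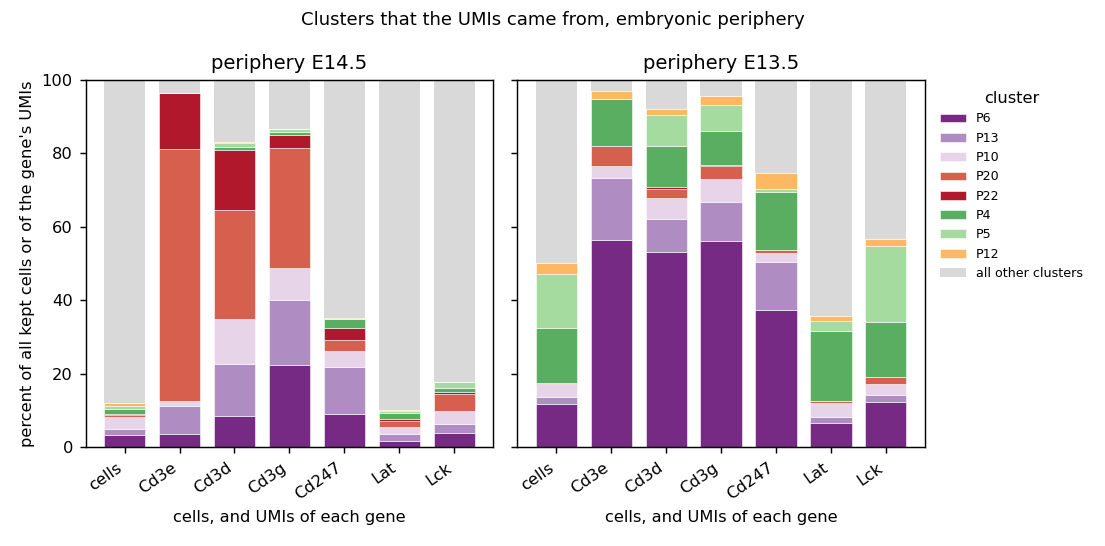
Share of kept cells (first bar) and of the UMIs of each gene, in percent, that came from 8 periphery clusters and from all other clusters (grey), at E14.5 on the left and E13.5 on the right. P6, P10 and P13 together held 8.34% of cells and 48.9% of Cd3g UMIs at E14.5, and 17.3% of cells and 73.1% of Cd3g UMIs at E13.5.

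The sources of the UMIs therefore differed between genes. P6, P10 and P13 together held 8.34% of cells at E14.5. They supplied 5.61% of the Lat UMIs, less than their share of cells, with 9.90% of the Lck and 48.9% of the Cd3g UMIs. At E13.5 they supplied 12.01% of the Lat, 17.2% of the Lck and 73.1% of the Cd3g UMIs with 17.3% of cells. Within the monocyte or macrophage-like cluster P12, 8 of 116 cells at E13.5 held 151 of its 185 Cd3g UMIs, and each of the 8 also had UMIs of Trbc1 and of the myeloid gene Lyz2. Doublet calling had not marked these cells, and their part in the level of P12 was not tested.

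In LTi-like cells of periphery taken alone, no member differed past 2-fold between stages. Lat stood at 210.1 CPM (204.7 to 215.6) at E14.5 and 219 CPM (211 to 227) at E13.5, Lck at 148 CPM (143 to 152) at E14.5 and 106 CPM (101 to 112) at E13.5, and Cd3g at 14.2 CPM (12.8 to 15.7) at E14.5 and 16.2 CPM (14.2 to 18.5) at E13.5. The intervals of Lat and of Cd3g overlapped between stages, and those of Lck did not. Past 2-fold, 0 of 3 members were higher and 0 lower, beside 1.05% of 7067 genes higher and 1.19% lower. The folds were -0.28 for Lat, 0.23 for Lck and -0.37 for Cd3g, each less a median of 0.23. Different clusters held the class at the 2 stages: P1, P2 and P3 with 1070, 1003 and 766 cells at E14.5, and P0 with 1189 cells at E13.5.

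How LTi-like cells were delimited moved Cd3g. With a gate on marker UMIs in place of clusters the Cd3g fold in LTi-like cells was -1.86, and with finer clusters it was 0.02. Cd3g was seen in 7.75% of LTi-like cells at E14.5 and 10.1% at E13.5, above the shares in B lineage-like cells given above. LTi-like cells were shallower than those cells, with medians of 8076 and 9820 UMIs. Against the myeloid classes of periphery the Cd3g shares of LTi-like cells did not stand clear. Monocyte or macrophage-like cells had a Cd3g UMI in 5.77% of cells at E14.5 and 12.8% at E13.5. The E13.5 share includes the P12 cells described above. Mast cell or basophil-like cells had one in 6.25% at E14.5 and 13.46% at E13.5. Each of these intervals overlapped that of LTi-like cells at the same stage. Cd3e had 6 UMIs in 3096 LTi-like cells at E14.5 and 1 UMI in 1317 at E13.5. The few LTi-like cells of fetal liver had more Cd3g and less Lat, with Cd3g at 58.6 CPM at E14.5 and 68.4 CPM at E13.5 and Lat at 90.9 CPM at E14.5 and 42.8 CPM at E13.5.

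Other genes of the pathway differed between tissues in both directions. Of 40 genes of T cell receptor signalling, 31 were at 10 CPM or more in a library at E14.5, and 13 of these were higher and 7 lower in periphery past 2-fold, with a median fold of 0.50. Zap70, the kinase that docks on CD3, stood at 104 CPM in E14.5 periphery and 2.43 CPM in E14.5 fetal liver (4.04). Zap70 was under 10 CPM in fetal liver, so it counted only through periphery and could not have come out lower in periphery. The other 5 largest were the Tec family kinase gene Txk (3.98), the adaptor genes Sla (3.63), Sh2d2a (2.25) and Sla2 (1.99), and Rasgrp1 (2.54), which encodes an activator of Ras. The Lat partner Lcp2, also called SLP-76, had a fold of 1.67. The 6 lowest were the adaptor gene Grb2 (-2.36), the Lck relative Fyn (-1.65), the Zap70 relative Syk (-1.51), Malt1 (-1.24), Plcg1 (-1.12) and Plcg2 (-1.11), the last 2 encoding phospholipases C.

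At E13.5 the same comparison gave 11 higher and 5 lower of 33 genes, with a median fold of 0.16. Zap70 stood at 48.3 CPM in periphery and 3.19 CPM in fetal liver (3.11), followed by Txk (2.91), Sla (2.36), Ptprcap (1.99) and Rasgrp1 (1.91). Zap70 again counted only through periphery. Lcp2 had a fold of 0.87. The genes lower in E13.5 periphery were Grb2 (-2.26), Cbl (-1.43), Fyn (-1.37), Plcg2 (-1.34) and Malt1 (-1.09). Grb2, Fyn, Plcg2 and Malt1 were thus lower in periphery at both stages, and Syk, Fyn and Plcg2 are known as signalling genes of B lineage and myeloid cells too.

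Between stages few pathway genes differed past 2-fold. In periphery 1 of 28 signalling genes was higher and 0 lower at E14.5, with a median fold of -0.01. It was Txk, which stood at 127 CPM at E14.5 and 41.5 CPM at E13.5 (1.28). Zap70 stood at 104 CPM at E14.5 and 48.3 CPM at E13.5 (0.80), Lcp2 had a fold of 0.15 and Fyn of -0.16. In fetal liver 0 of 28 were higher and 0 lower, with a median fold of -0.21, Fyn at 0.13 and Lcp2 at -0.64, and Zap70 stayed under 10 CPM. In LTi-like cells of periphery 1 of 25 was higher, again Txk, with 154 CPM at E14.5 and 61.2 CPM at E13.5 (1.03), with a median fold of 0.06. Zap70 had a fold of 0.01 there, Lcp2 of 0.38 and Fyn of -0.11.

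The receptor constant genes measured between tissues were higher in periphery. Of 11 listed receptor gene symbols 8 were in the feature lists, and 4 were at 10 CPM or more between tissues at each stage. The median fold was 2.19 at E14.5 and 2.62 at E13.5. All 4 of these were higher in periphery at both stages: Tcrg-C1 (4.08 at E14.5 and 3.83 at E13.5), Trbc1 (2.65 and 3.06), Trbc2 (1.74 and 1.66) and Tcrg-C4 (1.58 and 2.18). Of all measured genes, 12.3% at E14.5 and 12.6% at E13.5 were higher past 2-fold. Tcrg-C1 and Tcrg-C4 were under 10 CPM in fetal liver, so they counted only through periphery and could not have come out lower in periphery. Between stages in periphery Tcrg-C1 stood at 208 CPM at E14.5 and 69.9 CPM at E13.5 (1.28), the 1 of 4 past 2-fold with a list median of -0.07, while Trbc1 had a fold of -0.52 and Trbc2 of -0.23. In fetal liver the 2 genes measured between stages, Trbc1 (-0.09) and Trbc2 (-0.29), did not pass 2-fold, with a list median of -0.19. In LTi-like cells Tcrg-C1 (1.09) was the 1 of 3 past 2-fold, with a list median of -0.11, Trbc1 at -0.11 and Trbc2 at -0.12.

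Adaptors that do the work of CD3 for other receptors differed as well. Fcer1g, the ITAM chain of the Fc receptors, stood at 766 CPM in E14.5 periphery and 198 CPM in E14.5 fetal liver (2.09), and Hcst, also called DAP10, had a fold of 3.27, the other of 2 past 2-fold among 5. Tyrobp, also called DAP12, had a fold of 0.58 there. At E13.5 all 5 adaptor genes were higher in periphery, with Fcer1g at 2.72, Hcst at 2.55, Cd79a at 2.20, Tyrobp at 1.74 and Cd79b at 1.08. Between stages in periphery Tyrobp was the 1 lower of 5, with 472 CPM at E14.5 and 1175 CPM at E13.5 (-1.53), and Fcer1g had a fold of -0.51. In fetal liver the B cell receptor chains Cd79a (3.49) and Cd79b (1.74) were higher at E14.5, with Fcer1g at 0.13 and Tyrobp at -0.37. B lineage-like cells made up 34.0% of fetal liver cells at E14.5 and 1.55% at E13.5, and their part in these 2 folds was not tested. In LTi-like cells 0 of 4 adaptors passed 2-fold, with Tyrobp at -0.78 and Fcer1g at -0.42. The list's median fold was 0.58 between tissues at E14.5 and 2.20 at E13.5, 0.17 between stages in periphery, 0.15 in fetal liver and -0.03 in LTi-like cells.

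Among the 8 Src family genes, of which Lck is 1, Blk was the other gene higher in periphery, with folds of 2.18 at E14.5 and 2.98 at E13.5, and Fyn was the 1 lower at each stage, out of 5 and 6 measured. Between stages in periphery 0 of 5 were higher and 1 lower past 2-fold, in fetal liver 0 of 6 passed, and in LTi-like cells of periphery 0 of 4. The list's median fold was -0.29 between tissues at E14.5 and 0.47 at E13.5, -0.13 between stages in periphery, -0.05 in fetal liver and 0.06 in LTi-like cells.

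Of 13 lymphoid transcription factor genes, 7 were higher and 2 lower of 11 in E14.5 periphery against E14.5 fetal liver. The higher genes included Id2 (4.04), Tcf7 (2.93), Gata3 (2.93), Zbtb16 (2.42) and Tox (1.84), with Tcf3 (-2.19) and Id3 (-1.41) lower. At E13.5, 6 were higher and 2 lower of 11: Gata3 (2.26), Tcf7 (2.16), Zbtb16 (2.05), Ets1 (1.46) and Id2 (1.15) were among the higher, and Tcf3 (-2.42) and Id3 (-1.19) lower. Between stages Id2 was the 1 of 11 past 2-fold in periphery, with 1525 CPM at E14.5 and 407 CPM at E13.5 (1.66), and the 1 of 10 in LTi-like cells (1.496). In fetal liver Ets1 (1.39) was higher and Id2 (-1.21) and Tox (-1.14) were lower at E14.5, out of 10. The list's median fold was 1.84 between tissues at E14.5 and 1.15 at E13.5, 0.53 between stages in periphery, -0.25 in fetal liver and 0.30 in LTi-like cells.

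The genes most like each member over clusters differed between the CD3 chains and their partners. Likeness was Pearson r of log2(CPM + 5) over 26 points in periphery and 41 in fetal liver, among genes at 20 CPM or more in at least 2 clusters. For Cd3g the 5 nearest in periphery were Gm4208 (0.92), Cd3d (0.92), Trbc1 (0.87), Cd27 (0.87) and Rxrg (0.87), and in fetal liver Cd3d (0.95), Col9a3 (0.93), Tnfrsf9 (0.93), Ccl5 (0.93) and Gm4208 (0.92). For Cd3d they were Rxrg (0.94), Cd163l1, Tcrg-C4, Cd3g and Lrrc52 in periphery and Rxrg (0.96), Tnfrsf9, Cd3g, Bmp2 and Nrp2 in fetal liver. For Cd247 they were Icos (0.91), Rxrg, Trbc1, Hey1 and Tcrg-C4 in periphery and Col9a3 (0.96), Camk4, Rasgrp1, Cd160 and Stk39 in fetal liver.

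Cd3e had Cck (0.96), Igf2, Lrrc52, Hey1 and Calca nearest in periphery and Col9a3 (0.93), Cd3g, Pgam2, Gm15738 and Il2rb in fetal liver, but Cd3e in both tissues and Cd247 in fetal liver were themselves under 20 CPM in all or all but 1 of the clusters used. Lat had Furin (0.97), Tuba8, BC021614, Klf7 and Tnik nearest in periphery and Tnik (0.93), Tnf, Tesc and Gstp3 among its nearest in fetal liver. Lck had Sla2 (0.93), Cirbp, Eif3h, Fahd2a and Trbc2 nearest in periphery and Nrgn (0.90), Sla2, Trbc2, Gem and Bend5 in fetal liver. Rxrg and Trbc1 recurred among the CD3 chains, Tnik was near Lat in both tissues, and Sla2 and Trbc2 were near Lck in both.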

How the data were processed

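The deposited values are raw UMI counts, whole numbers for each gene in each barcode. The authors made them with Cell Ranger 3 on mm10, per the submitters' processing notes, and with version 3.0.0 or 3.0.1 per the file headers. The feature lists held 28427 genes in periphery and 31053 in fetal liver, of which 27566 were shared by gene ID.

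Barcodes with fewer than 500 genes or over 10% of UMIs from mitochondrial genes were left out. Scrublet was used for doublets, and 151 and 140 were left out in E14.5 and E13.5 periphery and 869 and 418 in E14.5 and E13.5 fetal liver. The automatic threshold was used in fetal liver and the expected rate in periphery.

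Cells of each tissue were clustered over both stages in scanpy 1.11.5, with 2000 variable genes (without the 6 members, haemoglobin, mitochondrial, ribosomal and cell-cycle genes), 30 principal components, 15 neighbours and Leiden clustering (leidenalg 0.10.2) at resolution 1. A cluster took the name of a class from listed markers, and the naming rule was settled after the clusters were seen. The members, gene lists and markers were chosen with earlier results of these data known.

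UMIs were summed over cells and given as CPM. With 1 library per group no count model was fitted and no p-value was computed. Genes reaching 10 CPM in 1 of the libraries compared counted as measured. A gene at 10 CPM or more in only 1 of them could pass 2-fold only as higher in that library. Before taking log2, 5 CPM was added, and the median fold of measured genes was taken off. The fold rule was tested on simulated counts, and filtering, doublet calling, clustering and naming were not. Genes outside the members were named if past 2-fold, at most 6 per direction and list, with Zap70, Lcp2, Fyn, Fcer1g, Tyrobp, Trbc1 and Trbc2 named in each comparison where they were measured. Some genes that this rule names are not reported here. Gene positions came from GENCODE M21 and promoter sequences from RefSeq. Alternatives used edgeR 4.0.16 for TMM factors in R 4.3.3, and analyses were run in Python 3.11.15.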

Additional observations from a re-analysis of the deposited data

Results flagged for a closer look

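Cd3g differed between the tissues in how its level differed between stages. Its log2 fold of E14.5 over E13.5 was -1.16 in periphery and 0.24 in fetal liver, a difference of -1.40. Its level was lower at E14.5 in periphery and higher, by less than 2-fold, at E14.5 in fetal liver. In fetal liver it reached 10 CPM only at E14.5 (10.4 CPM, against 8.34 CPM at E13.5). A lower fold at E14.5 could therefore not have been read in fetal liver. The share of cells with a Cd3g UMI in fetal liver was 4.64% at E14.5 and 5.21% at E13.5, or 3.09 and 2.83% after thinning, so the order of stages there changed with the measure. The difference was not tested, since each group is 1 library. Cluster P6 made up 3.45% of periphery cells at E14.5 and 11.9% at E13.5, and FL18, with the highest Cd3g level in fetal liver, made up 2.58% of cells at E14.5 and 0.910% at E13.5. In both clusters the level of Cd3g was lower at E14.5, with 447 CPM at E14.5 and 716 CPM at E13.5 in P6, and 379.5 CPM at E14.5 and 553 CPM at E13.5 in FL18. The part of the cell shares in the difference was not tested.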

How the results depend on the processing

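No member changed the sign of a fold that had passed 2-fold under any alternative run. The count of members past 2-fold between stages in periphery, 1 as reported, became 0 with no minimum level, 0 with no centring and 0 with cluster P6 left out. Cd3g kept its sign there in 12 of 12 alternatives and passed 2-fold in 9, from -1.70 without P20 and P22 to -0.48 without P6. Between tissues the count of 3 became 5 with no minimum level at each stage. In LTi-like cells of periphery the count of 0 became 1, Cd3g lower at E14.5, with clustering seed 3, with the members kept among the variable genes, with a marker gate and with P4 and P9 added, so the Cd3g value rests on how LTi-like cells are delimited. Without P20 and P22 the E14.5 tissue fold of Cd3g was 1.97, in place of 2.55. Leaving out P6, P20 and P22 or shallow clusters and adding P4 and P9 were chosen after seeing the data. Thinning to 5000 UMIs moved 24 of 24 shares of cells with a UMI, a gene minimum of 1000 moved 2 and keeping doublets 4. Cd3e had 51 to 196 UMIs per library, which limits what can be read of it. No paired analysis was possible because each group has 1 library.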

Other observations

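Some Cd3g UMIs lay in cells with markers of another lineage. The mast cell genes of periphery cluster P13 belonged to P34 after finer clustering, where Cd3g stood at 375 CPM in 6 cells at E14.5 and 419 CPM in 8 cells at E13.5, and at E14.5 its 40 UMIs came from 2 cells. The shallow, unnamed cluster P17, led by erythroid genes, had 28 Cd3g UMIs in 43 cells at E13.5 and 1 in 36 cells at E14.5. The single most Cd3g-rich cell held 132 UMIs in E14.5 periphery and 83 in E13.5 periphery, against 21 in E14.5 fetal liver and 32 in E13.5 fetal liver.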
